A study of Coptotermes formosanus x Coptotermes gestroi and Coptotermes formosanus and Coptotermes gestroi with 67 samples.

Results

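Worker bodies taken after a molt (post-molt) were set against worker bodies taken between molts (inter-molt) in Coptotermes formosanus and Coptotermes gestroi, which are subterranean termites, and in their 2 hybrids, Hybrid F and Hybrid G in the labels. The members were chosen from the sample titles: 20 of the 67 samples, of which 12 were post-molt and 8 inter-molt bodies. The labels give each body as the thorax with the abdomen, the gut having been taken out, and give no colony, worker number, age or treatment. They do not say which species was the mother of either hybrid. The columns of a group's samples were identical (0 genes differed in any group), and each group was therefore taken as 1 profile. The comparison thus had 4 post-molt and 4 inter-molt profiles, 1 per cross at each stage, out of 24 profiles in the series. The 3 samples of a post-molt group and of an inter-molt hybrid group gave 1 profile each, and the inter-molt groups of C. formosanus and C. gestroi listed 1 sample each. The spread among samples of 1 group was thus not measurable, and n below counts crosses, with both species and both hybrids called crosses for short.

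An insect grows by shedding its cuticle. With a pulse of the steroid hormone 20-hydroxyecdysone the epidermis separates from the old cuticle and lays down a new one. Later, after the old cuticle is shed, the new one hardens and tans. Coptotermes workers molt repeatedly, so a body sampled soon after a molt holds epidermis, muscle and fat body in a phase that a body sampled between molts has left or not yet reached. The deposited table pairs none of its gene IDs with names or functions. Genes are therefore given by ID, no pathway could be followed by name, and the labelled tissue could not be checked against its markers. In RNA from whole bodies, fewer cells of a type and less RNA per cell cannot be told apart.

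Post-molt profiles held 28645469 to 35404144 counts, against 10080438 counts in C. formosanus and 9861833 in C. gestroi between molts, and 30484518 and 27041363 counts in the inter-molt bodies of Hybrid F and Hybrid G. Depth therefore differed between stages in the species more than in the hybrids. Divided by the number of samples listed, all totals lay between 9013788 and 11801381 counts. Counting error alone allows up to 3 counts behind a 0, or 0.0847 to 0.105 CPM (counts per 1000000 counts of the profile) in the post-molt profiles and 0.0984 to 0.304 CPM in the inter-molt ones. NA stood in 8.64% of the cells of these 8 profiles and was read as no reads. In all 4 crosses the inter-molt body had NA in exactly the genes where the pre-molt body had it, while the post-molt NA genes differed. Where an inter-molt body had NA, the post-molt body of the same cross had a count in 176 to 504 genes. In the other direction, an inter-molt count stood beside a post-molt NA in 206 genes of Hybrid F and in 0 genes of each other cross. Whether a difference in how the table was assembled plays a part in the calls was not tested beyond leaving out all genes with NA, which gave 2722 called genes in place of the 2668 below.

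With the cross as a block, 1547 genes were higher and 1121 lower after the molt than between molts among 13046 genes tested, 11.9% and 8.59% of the tested genes (20.5% together; edgeR quasi-likelihood test, adjusted p under 0.05). The model also held the 4 pre-molt bodies, so that all 3 stages shared 1 estimate of the spread (6 residual degrees of freedom). Increases were the larger changes. The median log2 fold change was 1.31 among higher genes, with quartiles of 0.74 and 2.46, and -0.89 among lower genes, with quartiles of -1.89 and -0.55, beside -0.02 over all genes tested. At least 16-fold changes were found in 160 higher and 85 lower genes, 4-fold to 16-fold ones in 329 and 178, and changes below 2-fold in 580 and 614. All 4 post-molt profiles lay above all 4 inter-molt profiles in 1280 of the 13046 genes (9.81%) and below them in 758 (5.81%). The number of calls was 1648 without the post-molt C. formosanus body, 1397 without the inter-molt Hybrid F body and 1384 without the post-molt Hybrid F body. Without the inter-molt bodies of both species, 787 genes were higher and 824 lower, so the excess of higher genes depended on those profiles.

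Of the genes called higher, 588 were at least 2-fold and 225 at least 4-fold higher in every cross, and of those called lower 243 and 96. BGI_novel_G002923 and BGI_novel_G002924 are the higher genes whose smallest change over the 4 crosses was largest, among 1235 higher genes with a mean of at least 8 CPM after the molt and the same sign in all crosses. BGI_novel_G002923, of 530 bases, had 967.1 CPM in C. formosanus, 3474 CPM in C. gestroi, 816.2 CPM in Hybrid F and 775.0 CPM in Hybrid G after the molt, against 0, 0, 0.0766 and 0.0688 CPM in the same crosses between molts. It was thus near absent from all 4 inter-molt bodies and abundant in all 4 post-molt bodies. The 8 profiles held 190916 counts after the molt and 5 between molts, a ratio of 22510 in pooled counts per total (95% exact counting interval 9645 to 69320). The fitted log2 fold change was 14.38 ± 1.51 (SE, edgeR adjusted p = 0.00096).

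BGI_novel_G002924, the next ID in the table and 969 bases long, had nearly the same profile. In the same order of crosses it had 978.3, 3138, 687.8 and 890.2 CPM after the molt, against 0.0816, 0.0892, 0.128 and 0.0344 CPM between molts. Its log2 fold change was 13.76 ± 1.35 (SE, edgeR adjusted p = 0.00074). In both genes C. gestroi stood far above the other 3 crosses after the molt. Whether the pair are copies that share reads was not tested. Both were already counted before the molt. BGI_novel_G002923 had 101.1, 782.6, 50.5 and 4.09 CPM before the molt, again lowest in Hybrid G, and its pre-molt against inter-molt log2 fold change was 10.56 ± 1.41 (edgeR adjusted p = 0.0015), with the inter-molt profiles shared by both comparisons.

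Of the lower genes, BGI_novel_G001199 and Cfor_01833 changed most in the cross where they changed least. BGI_novel_G001199, of 3374 bases, had 0.441 CPM in C. formosanus, 0.138 CPM in C. gestroi, 0.349 CPM in Hybrid F and 0.0571 CPM in Hybrid G after the molt, against 104.7, 88.8, 65.9 and 131.2 CPM between molts. Its log2 fold change was -8.82 ± 1.26 (SE, edgeR adjusted p = 0.0031). Its 2 to 15 post-molt counts per profile lie close to the counting floor. Cfor_01833, of 2066 bases, had 1.88, 0.207, 0.564 and 0.571 CPM after the molt in the same order of crosses, against 303.0, 278.5, 327.9 and 530.2 CPM between molts. Its log2 fold change was -9.12 ± 0.95 (SE, edgeR adjusted p = 0.00093). Neither gene's groups overlapped, and the inter-molt levels of Cfor_01833 differed less than 2-fold over the crosses.

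Before the molt these genes stood between the other stages on average, with differences among crosses. BGI_novel_G001199 averaged 97.7 ± 27.5 CPM between molts, 15.3 ± 13.8 CPM before the molt and 0.246 ± 0.179 CPM after it (SD, n = 4 crosses). The pre-molt level ran from 0.409 CPM in Hybrid G to 31.2 in C. gestroi. Cfor_01833 averaged 359.9 ± 115.3 CPM between molts, 19.4 ± 13.3 CPM before the molt and 0.806 ± 0.736 CPM after it (SD, n = 4). Hybrid G again had the lowest pre-molt level, at 3.01 CPM.

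**Figure D1:**
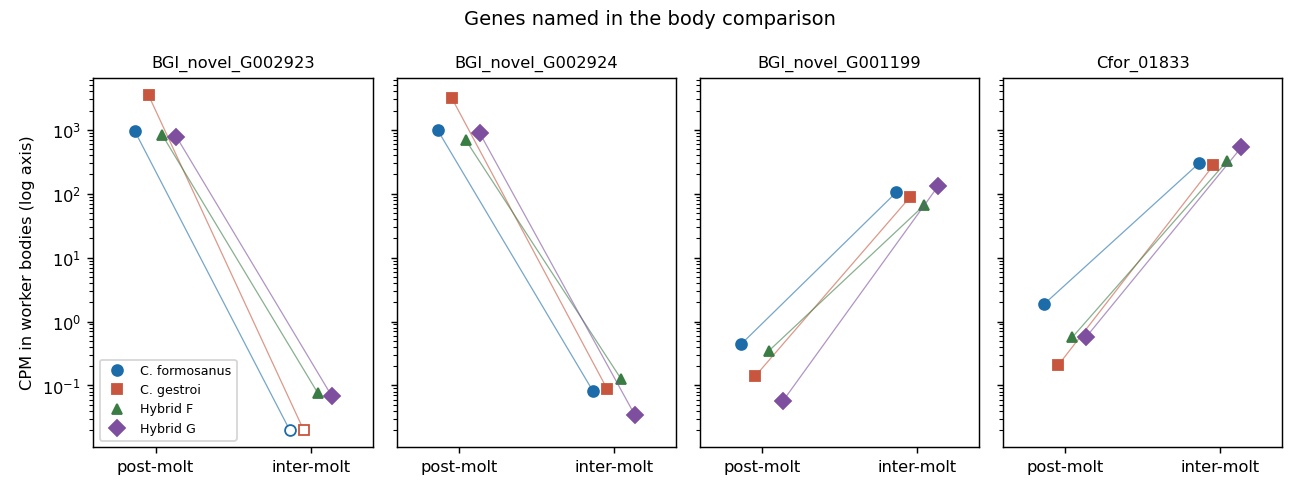
CPM (log axis) of the 4 named genes in post-molt and inter-molt worker bodies, 1 point per cross, with a line joining the profiles of a cross; open symbols are profiles without a count, drawn at the bottom of the axis. BGI_novel_G002923 and BGI_novel_G002924 lie between 687.8 and 3474 CPM after the molt and at most at 0.128 CPM between molts, and the other pair lies the other way round.

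The called genes covered the whole range of expression. With genes sorted by mean log2 CPM over the 8 profiles, 7.73% of those under 1 were called higher and 3.39% lower, and 21.2% and 12.4% of those at 7 and over. The 160 genes at least 16-fold higher had a median of 69.4 to 90.2 CPM in the post-molt profiles, against 0.535 to 3.68 CPM in the inter-molt ones. The highest of these inter-molt medians was that of Hybrid G and the others were at most 0.894 CPM. The 85 genes at least 16-fold lower had medians of 0.415 to 0.743 CPM after the molt, against 23.3 to 66.3 CPM between molts, lowest in C. gestroi.

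**Figure D2:**
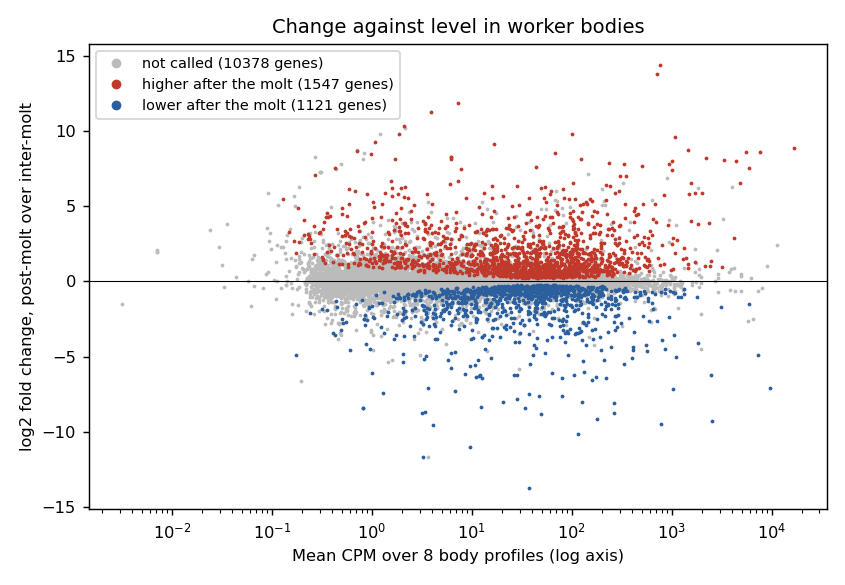
Log2 fold change (post-molt over inter-molt) against mean CPM over the 8 body profiles (log axis), 1 point per tested gene, with 1547 called higher and 1121 called lower. The 160 increases and 85 decreases of at least 16-fold are spread over low and high levels.

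Some genes were found at 1 stage and hardly at the other. In 16 genes the 4 inter-molt profiles held at most 3 counts in all while every post-molt profile held at least 10, and 14 of them were called higher. No count was found between molts in 9 of the 16, of which BGI_novel_G001692 and Cfor_11488 were not called. In 6 of the 9 at least 1 inter-molt value was NA, and the other 3, BGI_novel_G002832, Cfor_04736 and Cfor_06334, were listed at 0 in every inter-molt body. Against a floor of 3 counts over the 4 inter-molt profiles, with NA read as no reads, these 9 were at least 14.5-fold to at least 397.3-fold higher after the molt. For the 6 with NA the bound holds only if NA means no reads. The 3 without NA were at least 52.5-fold, 22.4-fold and 397.3-fold higher, in the order named. The highest bound was that of Cfor_06334, with 100, 217, 910 and 795 counts after the molt by cross, in the order used above, and none in any inter-molt body. Without Hybrid F, its highest cross, that bound was 180.6-fold, and without Hybrid G the lowest bound, that of Cfor_05094, was 8.66-fold. In 5 of the 16 the pre-molt bodies held more counts in all than the post-molt ones, so these genes were lowest between molts and highest before the molt. Over the 4 crosses BGI_novel_G002832 had 0 counts in inter-molt, 228420 in pre-molt and 267 in post-molt bodies. In the same order of stages, Cfor_08082 had 1, 15968 and 183 counts and BGI_novel_G001861 had 2, 30470 and 223. Cfor_05327 had 2, 3512 and 130 counts, and Cfor_04736 had 0, 662 and 114. All these IDs were named after their values were seen. The reverse was seen in BGI_novel_G003134 and Cfor_03141. BGI_novel_G003134 had no count in any post-molt body, against 16, 3068, 894 and 63 counts between molts by cross, in the order above, and was at least 2285-fold lower against 3 counts over the 4 post-molt profiles. Its Hybrid F post-molt value was NA. C. gestroi held most of its inter-molt counts, and without that cross the bound was 493-fold. It had no count before the molt either. Cfor_03141 had 2 counts after the molt, both in C. gestroi, against 89, 22, 310 and 297 counts between molts in the same order of crosses.

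The called genes took a large part of all counts. Genes called higher held 33.4% to 38.5% of the counts of the 4 post-molt profiles, against 6.90% to 11.3% in the 4 inter-molt profiles. Genes called lower held 5.39% to 5.97% after the molt, against 21.7% to 23.0% between molts. These shares describe genes chosen by the same comparison and carry no test. The shares were close among crosses, and the genes called lower took nearly the same share of every inter-molt body. Before the molt, a stage outside the contrast that chose them, the higher genes held 20.8% to 25.7% and the lower genes 4.56% to 6.08% of all counts. The lower genes thus took about as little of a pre-molt as of a post-molt body, whereas the higher genes took an intermediate share before the molt.

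**Figure D3:**
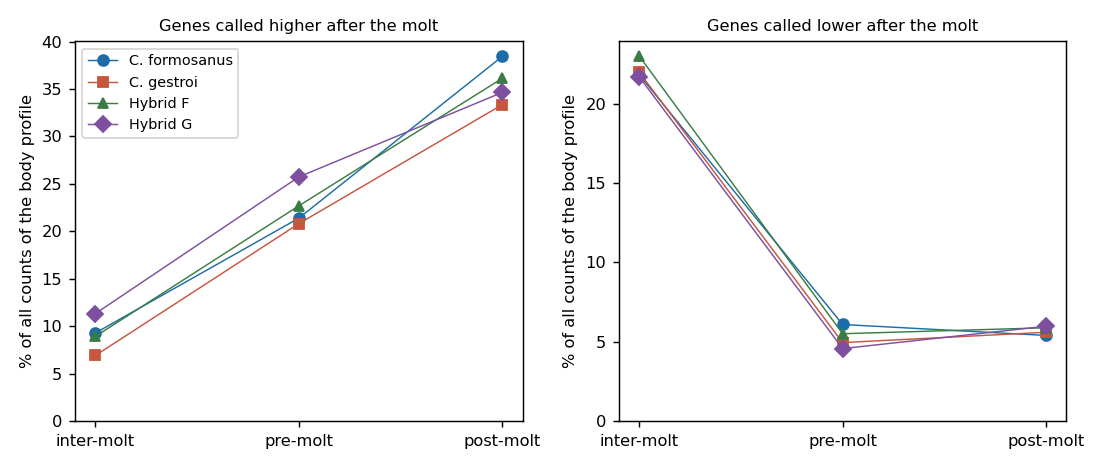
Share of all counts of each body profile (%) in the genes called higher and in the genes called lower after the molt, at the 3 stages, with 1 line per cross. The share of the lower genes lies between 4.56% and 6.08% both before and after the molt, and that of the higher genes between 20.8% and 25.7% before it.

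Gene by gene, the pre-molt mean lay between the post-molt and inter-molt means in 918 of the 1547 higher genes (59.3%), above both in 511 (33.0%) and below both in 118 (7.63%). Among the 1121 lower genes it lay between in 692 (61.7%), below both in 360 (32.1%) and above both in 69 (6.16%). Over all tested genes these positions were nearly equally frequent, at 34.0% between, 32.3% above and 33.7% below. Genes chosen for a wide gap between 2 stages have more room for the pre-molt mean inside it, so this background is no like-for-like measure. The median log2 difference from the inter-molt level was 0.88 before and 1.28 after the molt in the higher genes, and -0.66 before and -0.88 after it in the lower genes. The inter-molt profiles are shared by these differences.

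The recurrence of the changes was examined by leaving out each cross, calling genes in the other 3 crosses and reading them in the cross that the test had not used. Without Hybrid F, 460 genes were called higher and 239 lower. Of these, 459 and 238 changed the same way in Hybrid F, 83.3% and 77.4% by at least 2-fold, beside 13.0% and 8.74% of all genes tested. Without C. formosanus, 940 were called higher and 654 lower, and 96.9% and 92.7% of them changed the same way in that species, 66.0% and 47.3% by at least 2-fold, beside 15.4% and 11.5% of all genes tested. Without C. gestroi, 1345 and 1121 were called, and 93.6% and 81.7% changed the same way in it, 55.1% and 28.7% by at least 2-fold, beside 16.5% and 9.02%. Without Hybrid G, 1212 and 604 were called, of which 89.9% and 92.7% changed the same way in that hybrid, 50.1% and 53.3% by at least 2-fold, beside 13.8% and 9.01%. Of all genes tested, 46.5% to 52.0% changed in the matching direction in the cross left out. The genes called therefore moved the same way in most cases in profiles that had not chosen them. Both hybrids are crosses of the species compared, so the cross left out is related to those kept. Fewer genes were called without Hybrid F, which leaves those with stronger changes, so the percentages of the 4 crosses are not like for like.

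The size of the change in the cross left out was close to that in the other 3 for C. formosanus and Hybrid F. Genes called higher had a median log2 change of 1.46 in C. formosanus against 1.62 in the others, 1.20 in C. gestroi against 1.31 in the others, and 2.14 in Hybrid F against 2.01. In Hybrid G it was 1.001 against 1.87. The post-molt level of these genes in Hybrid G was near that of the other crosses, with a median log2 difference of 0.03, and the inter-molt level was 0.61 higher on the log2 scale. Genes called lower had a median log2 change of -0.93 in C. formosanus, where the other 3 crosses had -1.08. It was -0.54 in C. gestroi, where the others had -0.97. It was -1.78 in Hybrid F against -1.89 in the others, and -1.11 in Hybrid G against -1.40. In C. gestroi the inter-molt level of these lower genes was -0.55 on the log2 scale relative to the others. The genes were called in the other 3 crosses, which favours wide gaps between stages there. A smaller change in the cross left out, with its stage levels closer together, is thus partly built in. These differences between crosses carry no test.

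**Figure D4:**
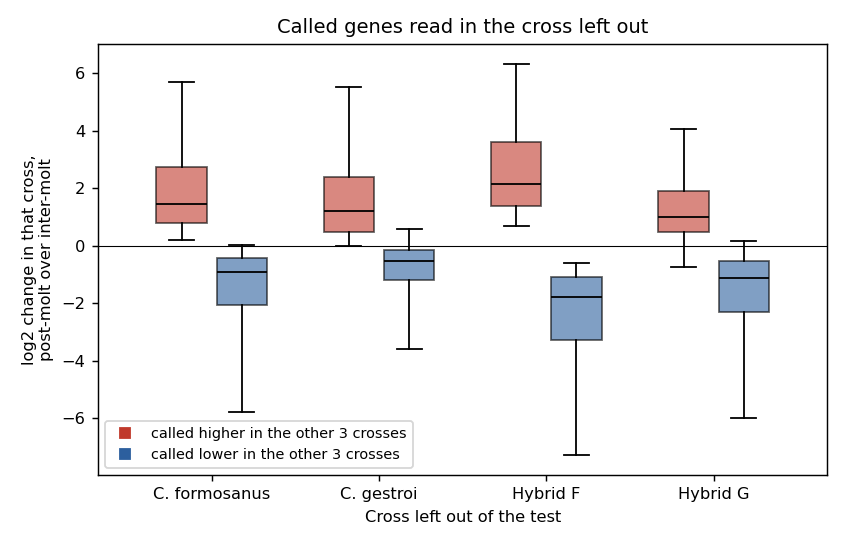
Log2 change (post-molt over inter-molt) in the cross left out, for genes called higher or lower in the other 3 crosses; boxes span the quartiles, the line is the median and whiskers reach the 5th and 95th percentiles. Medians of genes called higher are 1.46, 1.20, 2.14 and 1.001 from left to right, and those of genes called lower are -0.93, -0.54, -1.78 and -1.11.

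A pair of tests asked whether crosses differed in the size of the change. The change in both hybrids was set against that in both species, and the edgeR test found 0 of 13046 genes (0%) past the threshold (4 residual degrees of freedom). The unadjusted p was under 0.05 in 285, and DESeq2 called 27. Without the inter-molt Hybrid F body 31 genes were called. The inter-molt hybrid groups listed 3 samples and the species groups 1, so depth and hybrid status cannot be told apart here. Hybrid G alone, with 1 profile per stage and so no measured spread of its own, was set against the other 3 crosses. This test was added after the data were seen. It called 29 genes (0.222% of those tested), 28 of them with a more negative change in Hybrid G, and 6 of the 29 were among the 1547 higher genes. The count was 0 without any of the post-molt or inter-molt bodies of the other crosses, left out in turn, with 615 to 865 genes at an unadjusted p under 0.05. DESeq2 called 274. Each such fit also has fewer residual degrees of freedom than the full one, and whether the loss comes from that or from the profile was not tested.

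In heads of the same crosses and stages, which share no library with the bodies, 23.9% of 12845 tested genes were higher and 24.5% lower after the molt. Among 12538 genes tested in both tissues, 1192 were called higher in both, 78.2% of the body list and 39.6% of the head list. The 848 genes called lower in both were 80.3% of the body list and 27.3% of the head list. Opposite calls were few, with 29 genes higher in the body and lower in the head and 22 the other way. The median head log2 change of the higher body genes was 1.10 and that of the lower ones -0.79, beside -0.02 for all genes tested in both. Body and head log2 fold changes correlated with r = 0.75 and rho = 0.63 across these 12538 genes, which share profiles and are not independent replicates. The labels do not say whether heads and bodies came from the same workers.

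BGI_novel_G001199 fell in heads too, to 0.0616, 0.204, 0.0654 and 0.109 CPM after the molt, against 54.4, 26.8, 19.1 and 31.5 CPM between molts, in the order of crosses used above. Its head log2 fold change was -8.62 ± 1.08 (SE, edgeR adjusted p = 0.00044). Cfor_01833 kept more of its head level, at 17.6, 128.6, 17.8 and 26.0 CPM after the molt, against 686.7, 1197, 1321 and 1164 CPM between molts in the same order, and its log2 fold change there was -4.80 ± 1.17 (edgeR adjusted p = 0.011). The body change of Cfor_01833 minus its head change was -4.30 ± 1.41 and did not pass the threshold (edgeR adjusted p = 0.096). BGI_novel_G002923 and BGI_novel_G002924 had too few head counts to enter the head test. In the test of body minus head over all 24 profiles neither passed the threshold, with 9.87 ± 4.13 for BGI_novel_G002923 (edgeR adjusted p = 0.19). The estimate for BGI_novel_G002924 was 6.49 ± 126 (SE, edgeR adjusted p = 0.99). With so wide an SE the test cannot decide whether its body and head changes differ.

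The difference between the body and the head change was tested over all 24 profiles with cross by tissue as blocks (12 residual degrees of freedom). It was called in 651 of 13534 genes (4.81%), positive in 362 and negative in 289 of them. The balance of directions depended on the scaling, with 301 positive and 320 negative under median-of-ratios (RLE) scaling, and was 180 and 200 without the inter-molt Hybrid F body and 177 and 209 without the inter-molt Hybrid F head. Of the 2668 genes called in the body, 288 had such a call. Among the 651, 60 genes were at least 2-fold higher after the molt in the body and changed less than 2-fold in the head, and 36 were at least 2-fold lower in the body only. Another 86 and 101 were at least 2-fold higher or lower in the head and changed less than 2-fold in the body. In 12 genes the body change was at least 2-fold up and the head change at least 2-fold down, and 6 were the reverse. Of these, 6 and 2 had a mean of at least 8 CPM at the higher stage in both tissues. The largest class, 276 genes, changed less than 2-fold in both tissues, and 41 and 33 were at least 2-fold higher or lower in both. These classes use log2 CPM with a prior count of 2, so a gene near absent from a tissue counts as little changed there. The count was 413 without the post-molt C. formosanus body, 317 without the post-molt and 402 without the inter-molt C. formosanus head, 421 without the post-molt C. gestroi head, 317 without the post-molt and 380 without the inter-molt Hybrid F body, and 307 without the post-molt and 386 without the inter-molt Hybrid F head. It was 1108 without the inter-molt Hybrid G body.

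Cfor_06096, chosen after its values were seen as the gene with the largest such opposite change at 8 CPM or more in both tissues, was higher after the molt in all 4 bodies and lower in all 4 heads. In bodies it stood at 32.2, 13.8, 23.8 and 21.8 CPM after the molt in the same order of crosses, against 1.67, 1.18, 1.17 and 4.79 CPM between molts. In heads it stood at 56.5, 19.4, 32.9 and 34.8 CPM after the molt, against 116.2, 70.4, 64.3 and 62.9 CPM between molts in the same order. The stages overlapped in neither tissue. The body log2 fold change was 3.49 ± 0.43 (edgeR adjusted p = 0.0017), that in heads -1.16 ± 0.21 (adjusted p = 0.0025), and their difference 4.65 ± 0.48 (SE, edgeR adjusted p = 0.00017).

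The genes with the largest body minus head differences among those with the same sign in all crosses were near absent from 1 tissue or stage. BGI_novel_G000940 was largely found in inter-molt bodies. It had 0.150, 0.493, 0.137 and 0.233 CPM in post-molt bodies, by cross as above, against 18.2, 57.8, 20.7 and 5.81 CPM in inter-molt bodies, and at most 0.106 CPM in the post-molt or inter-molt heads. Its inter-molt heads of C. formosanus and Hybrid G were listed as NA, so its fitted difference rests in part on NA read as no reads. BGI_novel_G002886 rose in both tissues. It had 3.70, 7.85, 6.11 and 7.67 CPM in post-molt bodies, against 0, 0, 1.02 and 1.48 CPM in inter-molt bodies, with 832 and 81 counts in all, a ratio of 6.06 in pooled counts (95% exact counting interval 4.82 to 7.70). In heads it had 1608 counts after the molt and none between molts, at least 421.8-fold higher against 3 counts over the group. The body minus head log2 difference was -8.71 ± 1.76 for BGI_novel_G000940 (edgeR adjusted p = 0.013) and -8.27 ± 1.49 for BGI_novel_G002886 (edgeR adjusted p = 0.012), and both depend on counts near 0. BGI_novel_G001526 and BGI_novel_G000968 led the positive differences, at 8.45 ± 1.59 and 8.79 ± 1.68 (edgeR adjusted p = 0.0090 and 0.028), with decreases in the head. BGI_novel_G001526 had 6 counts in post-molt against 5853 in inter-molt heads, and 9 against 14 counts in bodies. BGI_novel_G000968 had 235 counts in post-molt against 3985 in inter-molt heads, and in bodies 13 counts in post-molt Hybrid G, while the other post-molt bodies and all 4 inter-molt bodies were listed as NA. Its fitted difference therefore rests on NA read as no reads, and the body gave no measured change to set against the head. The difference of BGI_novel_G000968 was 4.09 without the post-molt and 4.91 without the inter-molt Hybrid G body (edgeR adjusted p = 1 in both), and its adjusted p lay between 0.052 and 0.057 without the post-molt C. formosanus, C. gestroi or Hybrid G head or the inter-molt C. formosanus or Hybrid F head. That of BGI_novel_G000940 lost its call without the post-molt C. formosanus head (edgeR adjusted p = 0.065), the post-molt Hybrid G head (0.071) or the inter-molt C. gestroi head (0.0503), and that of BGI_novel_G002886 with post-molt and inter-molt profiles alone (edgeR adjusted p = 0.13).

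**Figure D5:**
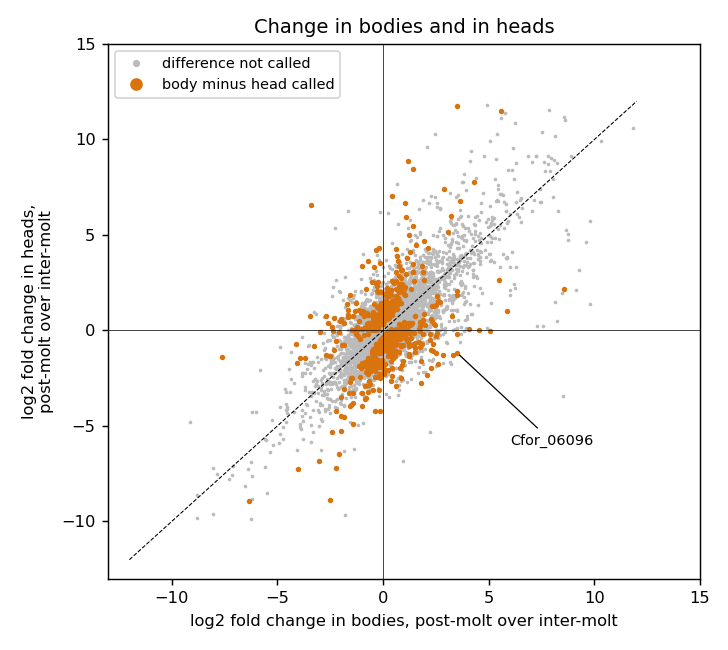
Log2 fold change (post-molt over inter-molt) in bodies on the x axis and in heads on the y axis for 12538 genes tested in both tissues; coloured points are the 637 of them with a called difference between body and head, and the dashed line marks equal changes. Genes higher in both tissues lie at the upper right, those lower in both at the lower left, and Cfor_06096 lies at 3.49 in bodies and -1.16 in heads.

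The share of genes called differed by ID class and by length. Of 3521 tested genes with a BGI_novel number, 7.50% were called higher and 6.05% lower, against 13.5% and 9.53% of 9524 genes with a Cfor number. In the share called higher, the classes were closer in percentage points among genes of like level, and their order turned at the highest level. At a mean log2 CPM of 5 to 7 the shares called higher were 15.9% for BGI_novel and 16.4% for Cfor genes, at 7 and over 25.8% and 20.9%, and under 1 they were 5.75% and 9.88%. Genes called higher had a median length of 3979 bases, those called lower 3041 and all tested genes 2977. The share called higher went up over the length quartiles, at 7.38%, 9.43%, 13.4% and 17.2%, while the share called lower was 6.73%, 10.1%, 8.80% and 8.71%. Longer genes were called higher more often within each of the 5 level bins too. At a mean log2 CPM of 5 to 7, 19.6% of genes longer than the median of 2977 bases were called higher, against 9.83% of the others, and 9.74% against 13.1% were called lower. Whether annotation or read assignment plays a part was not tested.

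Genes that follow a called gene in ID number were called in the same direction more often than their class as a whole, which is given as a description without a test. After a Cfor gene called higher, the gene with the next number was also called higher in 191 of 966 tested pairs (19.8%), beside 13.5% of all Cfor genes. For BGI_novel genes this was 49 of 231 pairs (21.2%), beside 7.50%. For lower genes it was 94 of 727 Cfor pairs (12.9%, beside 9.53%) and 33 of 187 BGI_novel pairs (17.6%, beside 6.05%). BGI_novel_G002923 and BGI_novel_G002924 are such a pair. Whether consecutive numbers are neighbours in the genome, or copies that divide reads, is not given in the sources used here.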

How the data were processed

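RNA from worker bodies of 4 crosses was sequenced, per the labels' protocols after Trizol and silica-column extraction and mRNA library preparation. Bowtie2, RSEM and DESeq2 are named in the submitters' processing notes. Their versions and the genome build with its annotation were not given in the sources used here. Deposited by the authors were expected counts (estimated counts, 30.2% of the values not whole) for 15950 genes. RSEM-type estimates divide reads among similar genes, so near-identical copies are uncertain.

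Each group was 1 profile, NA was read as 0 and expected counts were rounded. For bodies, 12 profiles were filtered with filterByExpr by stage, scaled by TMM and fitted with cross and stage in edgeR 4.0.16 under R 4.3.3, with dispersions from estimateDisp, a robust glmQLFit and glmQLFTest. A gene was called at a Benjamini-Hochberg adjusted p below 0.05. Heads were fitted alike. Tests were also run on simulated counts with known changes, and the outcome is not given here. Those counts do not bear on identical columns or on NA read as 0. SE is the absolute log2 fold change over the square root of F. CPM values are TMM-scaled, and those of Cfor_06096, BGI_novel_G000940 and BGI_novel_G002886 use the scaling over all 24 profiles. Changes within a cross use log2 CPM with a prior count of 2. Pooled ratios and floors use unscaled totals, and their intervals cover counting error only.

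The p-values measure recurrence over crosses, not spread between workers or colonies. In the test of Hybrid G alone no spread within Hybrid G was measured, only that of the other crosses. Both hybrids are crosses of the same species, so the crosses are not independent lineages. Genes were named among called genes with the same sign in all 4 crosses and at least 8 CPM at the higher stage: the 2 per direction ranked by the smallest change over crosses and, for the tissue test, the 2 per direction with the largest difference. Exceptions are stated as such. Members, rules and tests were chosen with earlier results of these data known. Alternatives were RLE scaling, no filter, DESeq2 1.42.0, fewer profiles, no cross block, thinning and leaving out profiles or crosses.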

Additional observations from a re-analysis of the deposited data

Results flagged for a closer look

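In post-molt bodies, BGI_novel_G002923 stood at 3474 CPM and BGI_novel_G002924 at 3138 CPM in C. gestroi, and the other 3 crosses lay at 775.0 to 967.1 and 687.8 to 978.3 CPM. C. gestroi was so far from the other profiles that its gap to the nearest took most of the range of the 4 values. About 1 in 20 groups of 4 normally distributed values shows such a gap by chance. CPM values need not be so distributed, so the rate for these data is not known. Both genes had nearly the same profile and are not separate cases.

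The change after the molt differed between body and head in 651 genes by the test of the difference itself. Of the genes named for it, BGI_novel_G000968 had a body minus head log2 fold change of 8.79 and BGI_novel_G001526 of 8.45, while BGI_novel_G000940 had -8.71 and BGI_novel_G002886 -8.27. These fitted differences depend on how counts near 0 are handled. BGI_novel_G000968 was NA in all bodies other than post-molt Hybrid G, and its difference was 4.09 without the post-molt and 4.91 without the inter-molt Hybrid G body (edgeR adjusted p = 1 in both). Cfor_06096, with counts in every profile, had a difference of 4.65, and it lay between 4.28 and 5.28 when single profiles were left out.

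The change in Hybrid G bodies differed from that in the other 3 crosses in 29 genes, a count that was 0 whenever any of the 6 post-molt and inter-molt bodies of those crosses was left out.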

How the results depend on the processing

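No paired analysis was possible because the columns of a group hold identical values, so the replicate numbers pair nothing; the planned fit with the replicate number as a block was not run. The count of genes called between post-molt and inter-molt bodies (2668) stayed within 1.5 times under 17 of 26 alternatives, among them RLE scaling (2703), no filter (2459), DESeq2 (3958), post-molt and inter-molt profiles alone (1923) and thinning to the smallest total (2418). It was 1172 without the cross block, 920 in the hybrids alone, 318 in the species alone, 1597 without all C. formosanus bodies, 700 without all Hybrid F bodies and 1611 without both species' inter-molt bodies; these fits have fewer samples, apart from the fit without the block, where the cause was not tested. Without both of those inter-molt bodies 787 genes were higher and 824 lower. Leaving out 1 profile gave 1384 to 2994 genes. The body minus head count (651) was 1544 by DESeq2 and 307 to 1108 with 1 profile left out. The count for hybrids against species (0) was 27 by DESeq2 and 0 to 31, and that for Hybrid G against the others (29) was 274 by DESeq2 and 0 with 1 profile left out. The 4 genes named for the body kept their direction under all 26 alternatives. In the hybrids alone BGI_novel_G001199 and Cfor_01833 missed the threshold (edgeR adjusted p = 0.079 and 0.062). Of the single genes named and counts of called genes, none changed direction, apart from the balance of higher against lower calls. That balance turned without both species' inter-molt bodies (above). For body minus head (362 positive, 289 negative) it turned under RLE scaling (301 and 320). It also turned without the inter-molt Hybrid F body (180 and 200) and without the inter-molt Hybrid F head (177 and 209). Leaving out whole crosses or both species' inter-molt bodies, and all fits for Hybrid G alone and Cfor_06096, were added after seeing the data. The low inter-molt totals of both species limit how far low genes can be compared there.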
